A study of Mus musculus with 12 samples.

Results

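Among 12586 regions where HIF1A was called in both peak lists of N1E115 cells kept at 4% O2, 1553 were hypoxic co-bound sites lying between genes, and these are described here. N1E115 is a mouse neuroblastoma line, labelled as positive for NOS1, the neuronal nitric oxide synthase. A site was taken where the HIF1A region overlapped a region called in both ARNT lists at 4% O2 and none called in both ARNT lists at 20% O2. Its centre also had to lie outside every protein-coding gene and more than 1 kb from the nearest end of one. The same presence rule gave 5364 co-bound hypoxic sites in all, of which 2018 lay at gene ends and 1793 inside genes. HIF1A and ARNT were mapped by ChIP-seq, which sequences the DNA pulled down with an antibody, with 2 lists for each antibody at 4% and at 20% O2. All cells were the same line, grown for 3 days with 5% CO2 at ambient pressure, and the groups differ by label in oxygen and antibody. The lists also differ in form, input and sequencing lane, as given beside the results they touch. The lists hold positions and scores and no reads, so sequencing depth is unknown and the labelled cell type could not be checked against marker expression.

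HIF-1 is a pair of basic helix-loop-helix PAS proteins. Its HIF1A subunit is hydroxylated and destroyed when oxygen is plentiful, while ARNT is stable and also pairs with other PAS proteins such as the aryl hydrocarbon receptor. The pair binds the short core ACGTG or GCGTG, and binding away from promoters is well known at distal regulatory elements of hypoxia-responsive genes. In hypoxic cells HIF-1 is known for raising genes of glycolysis, mitophagy and blood vessel growth.

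Sequence is shown first for the starts of long noncoding RNA (lncRNA) genes that the sites overlap, because a site far from protein-coding genes can sit on such a start. RefSeq promoter windows (GRCm38.p6, from 250 bases before to 50 after a start) overlapped 76 of the 1553 sites. Those windows belonged to 77 genes, of which 76 were noncoding and 1, Ccng2, was protein-coding. Below are windows from the highest ranked of these sites and one near Atf3, an immediate early transcription factor gene, with the cores ACGTG and GCGTG in capitals on either strand (CACGT and CACGC are the same cores read on the other strand).
Gm31342, chr15:67039343-67039642, plus strand: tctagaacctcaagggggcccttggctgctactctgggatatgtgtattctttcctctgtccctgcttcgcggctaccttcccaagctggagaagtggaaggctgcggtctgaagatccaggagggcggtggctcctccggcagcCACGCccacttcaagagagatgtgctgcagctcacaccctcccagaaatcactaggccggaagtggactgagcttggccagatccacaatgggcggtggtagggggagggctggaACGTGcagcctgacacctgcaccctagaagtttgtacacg
Gm12758, chr7:34234127-34234426, plus strand: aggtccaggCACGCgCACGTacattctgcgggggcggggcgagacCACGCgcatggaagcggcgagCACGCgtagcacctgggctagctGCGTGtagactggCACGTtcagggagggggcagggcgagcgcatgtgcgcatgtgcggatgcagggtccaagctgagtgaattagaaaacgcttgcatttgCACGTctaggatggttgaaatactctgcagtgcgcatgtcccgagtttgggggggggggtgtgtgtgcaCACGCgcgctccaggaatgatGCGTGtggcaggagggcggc
9330111N05Rik, chr13:80963824-80964123, plus strand: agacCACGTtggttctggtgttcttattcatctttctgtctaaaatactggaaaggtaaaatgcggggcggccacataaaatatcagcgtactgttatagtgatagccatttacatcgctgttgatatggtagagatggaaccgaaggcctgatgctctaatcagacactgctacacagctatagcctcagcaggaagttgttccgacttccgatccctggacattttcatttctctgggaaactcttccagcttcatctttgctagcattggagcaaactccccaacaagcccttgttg
Gm38543, chr12:85451801-85452100, plus strand: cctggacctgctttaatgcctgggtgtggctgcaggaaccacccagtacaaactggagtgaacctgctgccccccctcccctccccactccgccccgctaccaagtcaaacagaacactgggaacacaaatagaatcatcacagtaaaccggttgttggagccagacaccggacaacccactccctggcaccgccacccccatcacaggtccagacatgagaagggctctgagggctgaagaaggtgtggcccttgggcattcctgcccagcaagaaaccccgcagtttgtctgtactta
Gm34649, chr1:60920982-60921281, plus strand: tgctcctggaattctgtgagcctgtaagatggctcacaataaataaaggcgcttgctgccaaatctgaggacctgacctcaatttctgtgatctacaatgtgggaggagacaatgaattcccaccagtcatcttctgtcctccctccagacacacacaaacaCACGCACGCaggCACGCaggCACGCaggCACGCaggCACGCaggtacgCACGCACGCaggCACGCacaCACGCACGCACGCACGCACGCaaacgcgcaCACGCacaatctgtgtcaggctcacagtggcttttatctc
D230017M19Rik, chr1:72243743-72244042, plus strand: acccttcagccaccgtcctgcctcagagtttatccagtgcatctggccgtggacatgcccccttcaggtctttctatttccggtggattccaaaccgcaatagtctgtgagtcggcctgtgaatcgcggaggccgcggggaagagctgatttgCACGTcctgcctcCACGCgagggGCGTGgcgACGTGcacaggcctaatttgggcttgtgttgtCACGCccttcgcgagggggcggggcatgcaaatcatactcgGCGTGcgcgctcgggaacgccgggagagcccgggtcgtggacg
D730003I15Rik, chr1:191224204-191224503, plus strand: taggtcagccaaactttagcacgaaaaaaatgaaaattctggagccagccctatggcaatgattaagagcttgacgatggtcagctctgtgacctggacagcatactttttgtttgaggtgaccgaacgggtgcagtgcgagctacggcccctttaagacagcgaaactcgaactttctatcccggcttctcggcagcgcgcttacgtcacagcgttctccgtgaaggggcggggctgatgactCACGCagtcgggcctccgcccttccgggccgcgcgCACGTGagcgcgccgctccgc
Gm12758 carries 3 ACGTG and 6 GCGTG matches, and the HIF1A summit of replicate 2 fell 3 bp from the nearest. Gm34649 holds a run of 15 GCGTG matches in repeated letters, with the summit on one of them. Gm31342 has 1 match of each core and a summit 40 bp away, whereas the Gm38543 window inside the site upstream of Fos holds neither core and no summit.

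Across the 85 windows overlapping an intergenic co-bound site, 76.5% held ACGTG or GCGTG, against 54.8% of 62 windows overlapping an intergenic HIF1A region without ARNT at 4% O2. The share was 43.8% over all 32851 windows and 33.6% over 11588 noncoding windows. A CACGTG counts as a match on each strand, and the cores can overlap. Some genes had several windows that overlap each other, so the shares are per window and not per site or gene. Median GC content was 55.0% in the windows at co-bound sites, 52.2% at HIF1A-only sites, 52.7% in all windows and 48.3% in noncoding windows, and its part in the shares was not tested. Where the window held the highest HIF1A summit of its site, 46 of 50 (92.0%) had a core, 15 bp from the summit in the median and within 50 bp in 36 windows. A match here is a string of letters and no measured site of contact.

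A second set of sequences belongs to microRNAs. Of the 1553 sites 24 had a total of 26 microRNA genes within 5 kb of their centre. The highest ranked of all sites lay 488 bp from Mir210, whose product miR-210 is a widely known hypoxia-induced microRNA. Mature sequences are shown with the seed (bases 2 to 8) in capitals, grouped so that equal seeds stand together.
mmu-miR-210-3p: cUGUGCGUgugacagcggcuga
mmu-miR-210-5p: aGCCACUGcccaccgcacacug
mmu-miR-125b-5p: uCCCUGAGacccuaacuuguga
mmu-miR-351-5p: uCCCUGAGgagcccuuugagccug
mmu-miR-132-3p: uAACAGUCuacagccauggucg
mmu-miR-212-3p: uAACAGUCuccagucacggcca
mmu-miR-322-5p: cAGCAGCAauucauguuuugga
mmu-miR-503-5p: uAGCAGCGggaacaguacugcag
miR-125b-5p and miR-351-5p share a seed but come from different sites, 1770 and 3990 bp away, near Usp25 on chromosome 16 and near Plac1 on chromosome X. miR-132-3p and miR-212-3p share another, and both lie by 1 site near Ovca2, at 457 and 177 bp. The miR-322 and miR-503 seeds differ in their last base, and both genes lie by the same site near Plac1 as miR-351. The other microRNAs shown lay by sites of lower mean percentile rank than the Mir210 site (99.9). Their sites had 87.1 (miR-125b), 68.8 (miR-322, miR-503 and miR-351) and 33.6 (miR-132 and miR-212). MicroRNA genes not shown also lay by high-ranked sites. By their highest site these included Mir3089 (98.3), Mir882 (97.6), Mir6973b (96.4) and Mir6363 (94.4).

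The strongest sites between genes were near Rassf7 with Mir210, Psma6, Keap1, Prep and St3gal1. A percentile rank places a peak's score within its own list, 100 being the highest, and the mean rank is taken over the 4 lists of 4% O2. The sites were chosen by the presence of HIF1A and ARNT peaks at 4% O2 and the absence of a reproducible ARNT region at 20% O2, so those measures are given as a description. The score is the authors' own value, whose scale no header names, and it is compared only within a list.

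At Rassf7, a Ras-association domain gene, the site (mm10 chromosome 7, 141221552 to 141222410) lay 3323 bp downstream of the gene. Its highest peaks scored 936 (HIF1A replicate 1), 1130.3 (HIF1A replicate 2), 474 (ARNT replicate 1) and 1743 (ARNT replicate 2) under 4% O2, and later values keep this order of replicates. At 20% O2 HIF1A replicate 2 had a peak scoring 205, while HIF1A replicate 1 and both ARNT lists had none. The site near Psma6, a proteasome subunit gene (chromosome 12, 55442683 to 55444994), was the widest of all at 2312 bp and lay 25379 bp downstream, with the NF-kappa-B inhibitor gene Nfkbia also within 100 kb. There HIF1A scored 1101 and 1352 and ARNT 518 and 1239.8 at 4% O2, and at 20% O2 only HIF1A replicate 2 had a peak (168). Both sites thus had peaks in every list of 4% O2 and in 1 of 4 lists of 20% O2.

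The site near Keap1, the adaptor that targets the antioxidant factor NRF2 for destruction (chromosome 9, 21224613 to 21226095), lay 4376 bp downstream. HIF1A scored 882 and 856 and ARNT 497 and 1189.7 there at 4% O2. At 20% O2 HIF1A replicate 2 scored 244 and ARNT replicate 1 scored 14.7, with no peak in the remaining 2 lists. A site 47469 bp from Prep, a prolyl peptidase gene, and one 63341 bp from St3gal1, a sialyltransferase gene, had the same pattern of lists. The site by St3gal1 covers the Gm31342 window shown above and has the stress-response gene Ndrg1 within 100 kb.

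The next sites carried mean ranks of 99.6 to 99.8. They lay near Tmem241, Garre1, a Rac effector gene, Fbxo16, Lao1, an L-amino acid oxidase gene, Amz2, Ddit4, Fance, Ffar4, Ace and Smug1. The Garre1 site (chromosome 7, 34233341 to 34235509) covers the Gm12758 window shown above, and its 100 kb hold Gpi1, the glycolytic glucose-6-phosphate isomerase. The Lao1 site (chromosome 4, 119018790 to 119020029) has Slc2a1, the glucose transporter GLUT1, within 100 kb. The Ddit4 site (chromosome 10, 59963587 to 59965651) lay 12849 bp upstream of that inhibitor of the growth kinase mTORC1, with scores of 580 and 754 (HIF1A) and 231 and 822 (ARNT) at 4% O2. It was the only one of the 15 highest with a peak in both HIF1A lists at 20% O2, at 5.74 and 189.5, and ARNT replicate 1 had one at 5.86.

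**Figure D1:**
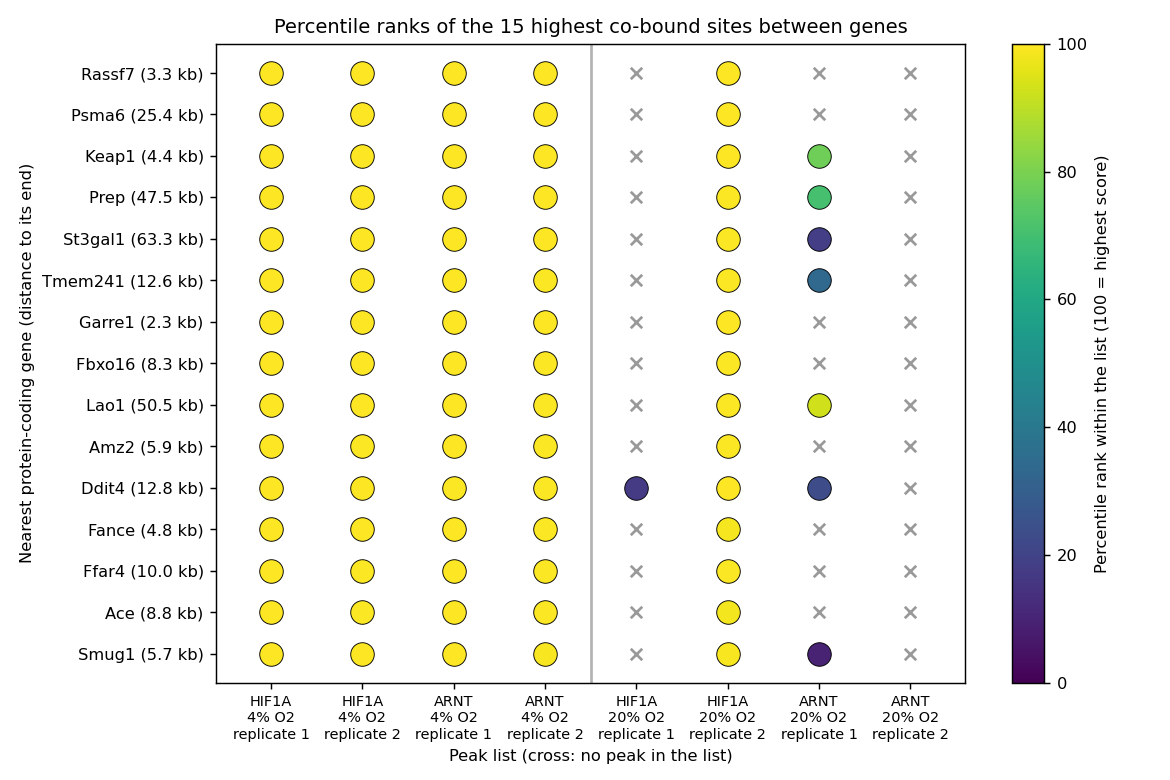
Percentile ranks of the 15 highest intergenic co-bound sites (rows, named by the nearest protein-coding gene with its distance in kb) in the 8 peak lists (columns, 4% O2 left of 20% O2); crosses mark lists with no peak. All 15 have a peak in HIF1A 20% O2 replicate 2, 1 has one in HIF1A 20% O2 replicate 1 and 7 have one in ARNT 20% O2 replicate 1.

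Ranks varied widely below these. The median mean rank of the 1553 sites was 76.8, with quartiles at 59.8 and 89.9 and a range from 10.6 to 99.9. In all 39 sites reached 99 or more and 205 lay under 50. Strong HIF1A sites tended to be strong in the other lists of 4% O2. Spearman's rho over the 1553 sites was 0.873 between the HIF1A lists and 0.760 between HIF1A replicate 2 and ARNT replicate 2, which were called against different inputs. These are descriptions over sites of the same libraries, and pairs of lists that share an input are given no correlation.

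Intergenic sites ranked close to co-bound sites elsewhere. Their median ranks at 4% O2 were 92.7 and 79.2 in the HIF1A lists and 80.8 and 68.3 in the ARNT lists, against 88.3, 73.0, 76.4 and 68.9 at gene ends. The mean difference was 3.64 ± 2.95 percentile points (SD over 4 lists), above 0 in 3 of 4 lists. It reversed to -0.33 when each list was cut to its highest peaks, as many as the shortest list holds, and to -4.26 without ARNT at 4% O2 replicate 2. Against co-bound sites inside genes the difference was 2.01 ± 0.911 points (SD, 4 lists), above 0 in all 4 lists. These ranks come from the lists that chose the sites and are a description with no test.

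HIF1A binding at 20% O2 was not itself used to choose the sites, but the rule on ARNT at 20% O2 bears on it. The 111 intergenic co-bound sites that the rule leaves out for their ARNT at 20% O2 had HIF1A in both lists at 83.8%. Shares of all HIF1A regions of 4% O2, which were not filtered on ARNT, are therefore background and no comparison. Of the 1553 sites 720 (46.4%, 95% Wilson interval 43.9 to 48.8) had a HIF1A peak in neither list at 20% O2, beside 45.3% of all 12586 HIF1A regions of 4% O2. Another 621 sites had one in a single list, and 212 (13.7%, 12.03 to 15.4) had one in both lists, beside 21.2% of all HIF1A regions. Nearly all of the single-list sites came from replicate 2, with 615 in replicate 2 only and 6 in replicate 1 only. A total of 697 sites (44.9%, 42.4 to 47.4) had no peak of either antibody in any list of 20% O2. This share was 36.6% for co-bound hypoxic sites at gene ends and 43.6% inside genes, and the rule itself limits ARNT at 20% O2. These intervals cover the counting of regions only.

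The 2 HIF1A lists of 20% O2 gave opposite differences between intergenic and gene-end sites. Replicate 1 had a peak at 218 of the 1553 intergenic sites (14.0%, 12.4 to 15.9), against 4.56% of co-bound sites at gene ends and 13.8% inside genes, beside 22.4% of all HIF1A regions. Replicate 2 had one at 827 (53.3%, 50.8 to 55.7), against 60.1% at gene ends and 53.5% inside genes, beside 53.4% of all HIF1A regions. The difference between intergenic and gene-end sites was therefore 9.48 percentage points in replicate 1 and -6.81 in replicate 2, with an exact sign-flip permutation p of 1 (smallest possible 0.5). Against sites inside genes it was 0.21 and -0.23 points. Replicate 1 holds intervals, shares its input with the ARNT lists and was read in a lane named in its header. Replicate 2 holds 1 bp summits, was called against another input and combined reads of a pair of runs, and these differences cannot be told apart from one another.

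HIF1A regions called in both lists at 20% O2 covered 180 intergenic sites (11.6%, 10.1 to 13.3), against 4.01% of gene-end sites and 11.5% of sites inside genes, beside 19.7% of all HIF1A regions. The difference from gene ends was 7.58 percentage points. It became -6.94 when HIF1A at 20% O2 replicate 1 was left out, so its direction rests on that list. With sites that had an ARNT peak in either list at 20% O2 left out, the share was 5.34%, against 2.73% at gene ends. For 2683 intergenic HIF1A regions without ARNT at 4% O2, which were not filtered on ARNT at 20% O2, it was 31.7%, and this is no like-for-like comparison. ARNT at 20% O2 is limited by the rule to 1 list, which held 261 of the sites, 255 in replicate 1 and 6 in replicate 2, and ARNT replicate 1 had a peak at 24.8% of all HIF1A regions.

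**Figure D2:**
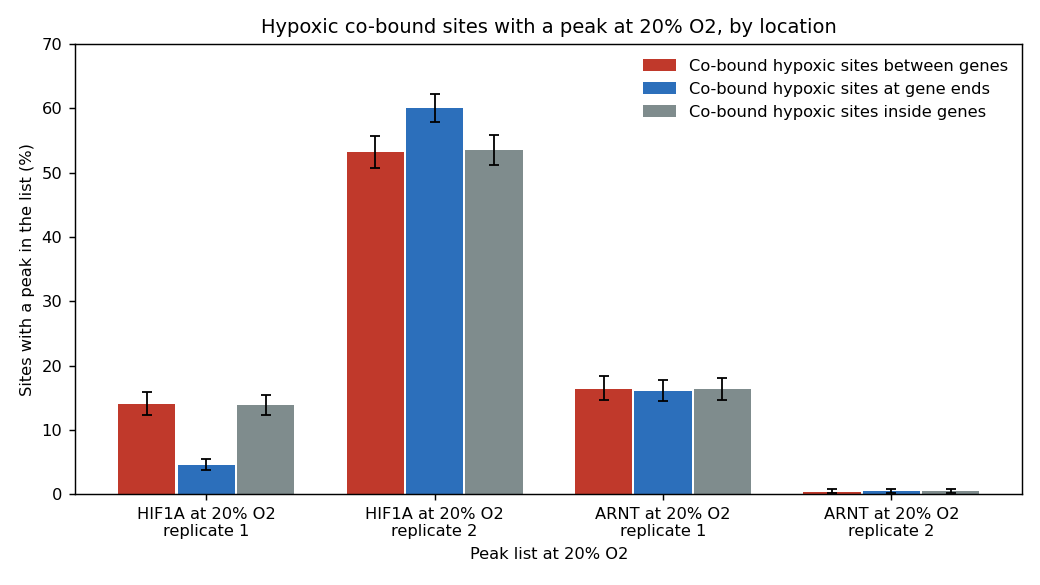
Share of co-bound hypoxic sites (vertical axis, percent) with a peak in each list of 20% O2 (horizontal axis), for sites between genes, at gene ends and inside genes, with 95% Wilson intervals as error bars. HIF1A replicate 1 is at 14.0% of intergenic and 4.56% of gene-end sites, and HIF1A replicate 2 at 53.3% and 60.1%.

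The strongest intergenic sites all had a HIF1A peak at 20% O2 in replicate 2, and few had one in replicate 1. Of the 15, 50 and 100 highest sites, all 15, 50 and 100 had a peak in HIF1A replicate 2 at 20% O2, and 1, 6 and 15 had one in replicate 1. Within the replicate 2 list the peaks of the 15 highest ranked from 98.1 to 99.8. Of the 100 lowest sites 20 had a peak in replicate 2 and 5 in replicate 1. By quartile of mean rank, from weakest to strongest, replicate 2 had peaks at 29.0%, 47.2%, 52.5% and 78.5% of intergenic sites, and replicate 1 at 11.3%, 15.1%, 13.7% and 15.8%.

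For replicate 1 the intergenic share was above that at gene ends in each quartile, where the gene-end shares were 2.77%, 4.28%, 4.72% and 6.85%. For replicate 2 the gene-end shares were 39.3%, 49.2%, 66.5% and 90.5%, higher than the intergenic shares in all 4 quartiles, though the Wilson intervals overlap in the second. Among sites with a peak at both oxygen levels, the HIF1A ranks at 4% and 20% O2 had a Spearman's rho of 0.117 in replicate 1 (218 sites) and 0.514 in replicate 2 (827 sites), given as a description of these lists.

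**Figure D3:**
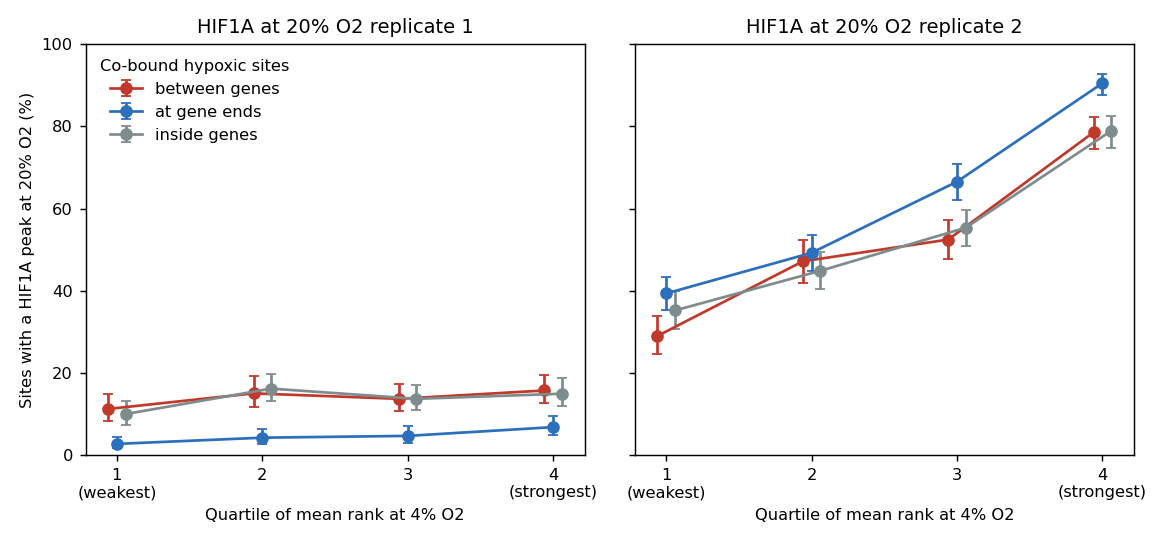
Share of co-bound sites with a HIF1A peak at 20% O2 (vertical axis, percent) by quartile of mean rank at 4% O2 (horizontal axis), for replicate 1 (left) and replicate 2 (right), with 95% Wilson intervals. In replicate 2 the intergenic share is 29.0% in the weakest and 78.5% in the strongest quartile, while in replicate 1 it stays between 11.3% and 15.8%.

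High-ranked sites with HIF1A in both lists of 20% O2 included those near Ddit4, Ribc2, Klhdc10, Skor1, a transcriptional corepressor gene, Bcor, another corepressor gene, Pfkfb3 and Rpusd4. The Pfkfb3 site, 45515 bp downstream of that regulator of glycolytic flux, scored 262 and 207 for HIF1A at 4% O2 and 22.7 and 35.9 at 20% O2. The Rpusd4 site, 29492 bp downstream of a mitochondrial RNA modification gene, was unlike the others. HIF1A there scored 127 and 387 at 4% O2 and 66.2 and 275 at 20% O2, ranking 99.4 and 99.9 in the lists of 20% O2. ARNT at 20% O2 replicate 1 scored 52.0 there (rank 99.1), and ARNT replicate 2 had no peak, which is why it met the rule.

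The highest sites with HIF1A in neither list of 20% O2 had mean ranks of 96.0 to 97.5. They lay near Rab17, a small GTPase gene, Bdh1, a ketone body enzyme gene, Actl6a, a chromatin remodelling subunit gene, Tiparp, Egfl7, Slc38a9, a lysosomal amino acid sensor gene, Zfp846 and Bag3, a co-chaperone gene. The Rab17 site scored 141 and 136 (HIF1A) and 90.1 and 304 (ARNT) at 4% O2 and had no peak in any list at 20% O2. Near Bdh1, 67731 bp downstream, HIF1A scored 177 and 164 and ARNT 81.3 and 210.2 at 4% O2, with an ARNT peak of 2.63 in replicate 1 at 20% O2.

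The sites spread over a wide range of distances from protein-coding genes. Distance from the centre to the nearest gene end had a median of 21444 bp, with quartiles at 7663 and 54196 bp, and a range from 1005 to 1304024 bp. Of the 1553 sites 256 lay within 5 kb, 498 at 5 to 20 kb, 373 at 20 to 50 kb, 210 at 50 to 100 kb and 216 beyond 100 kb. Median mean rank was similar over these bins, from 74.4 to 79.5. Peaks of HIF1A at 20% O2 replicate 1 were at 8.98%, 11.8%, 12.6%, 21.0% and 20.8% of the sites, in order of distance, and those of replicate 2 at 52.0%, 53.2%, 49.6%, 61.0% and 53.7%. The replicate 1 shares also rose for intergenic HIF1A regions without ARNT at 4% O2, at 21.2%, 32.2%, 36.4%, 36.7% and 47.3%. Those regions were not filtered on ARNT at 20% O2. Intergenic HIF1A regions without ARNT at 4% O2 lay farther out, at a median of 30626 bp, and 35.7% of all 4347 intergenic HIF1A regions were co-bound hypoxic sites.

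Where the strand of the nearest gene was in the promoter table, 654 of 1207 sites (54.2%, 51.4 to 57.0) lay upstream and 553 downstream. This leaves out 346 sites, and no such share was taken for other intergenic HIF1A regions. The sites were 352 bp wide in the median (99 to 2312 bp), against 309 bp at gene ends and 336 bp inside genes. The overlap of HIF1A with ARNT chose the sites, so the closeness of their peaks is a description. The highest HIF1A replicate 2 summit lay a median of 25.5 bp from the centre of the ARNT peak in replicate 1 and 27.5 bp in replicate 2. It was within 50 bp at 72.2% and 72.5% of intergenic sites, against 69.8% and 60.4% at gene ends. Inside genes the shares were close to the intergenic ones, at 71.4% and 72.4%.

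The 1 kb limit cut through a continuum. Just inside it were sites at 1005 bp from Ppp2r3a, 1008 bp from Scn3b and 1010 bp from Fam163b, with mean ranks of 94.3, 75.1 and 78.8. Just outside were sites at 998 bp from Jun, 991 bp from Hnrnpa0 and 982 bp from Ptbp2, with mean ranks of 78.2, 34.3 and 98.9. At the other extreme, the farthest sites had Cdh6 (1304024 bp), Edil3 (1153355 bp), Gata3 (1127625 bp), Hace1 (1073655 bp) and Immp2l (1031637 bp) as their nearest genes. The Edil3 site was the strongest of these, with scores of 118 and 66.5 (HIF1A) and 36.8 and 101 (ARNT) at 4% O2, and at 20% O2 a HIF1A peak of 11.0 in replicate 2 only.

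A gene beside an intergenic site often had no other co-bound hypoxic site of its own. The nearest gene also carried one at an end or inside for 490 of the 1553 sites (31.6%, 29.3 to 33.9), beside 15.4% of all protein-coding genes. The share for intergenic HIF1A regions without ARNT was 875 of 2683 (32.6%, 30.9 to 34.4), so the co-bound sites stood near that of other intergenic HIF1A regions. The sites had 1181 distinct nearest genes, of which 928 had 1 site, 177 had 2 and 76 had 3 or more. Zmiz1, a transcriptional coactivator gene, had the most, with 7 sites at 52508 to 442313 bp.

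Many sites stood in groups. Joining sites less than 50 kb apart gave 1188 stretches, of which 254 held 2 or more sites and together 619 sites (39.9%). No such share was taken for other HIF1A regions, so it cannot be called particular to these sites. The stretch with the most sites held 8 over 104956 bp around Irf2bp2, a corepressor gene, and Tarbp1 on chromosome 8, with mean ranks of 32.5 to 86.4. Stretches of 7 sites lay by Unc5b, a netrin receptor gene, with Pcbd1, and by Irf2bpl, a relative of Irf2bp2, with Cipc, which encodes a repressor of the circadian CLOCK protein, and Lrrc74a. Stretches of 6 included Ddit4 with Dnajb12, the stearoyl-CoA desaturase genes Scd1, Scd2 and Scd4 with Pkd2l1, and Vegfa with Mrps18a. In the Scd stretch all 6 sites had a HIF1A peak at 20% O2, 4 of them in 1 list and 2 in both, whereas in the Vegfa stretch 3 had one, none of them in both lists. Some sites share an ARNT region (24 of the 1553), so such neighbours are not independent.

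Around Slc2a1 5 sites lay within 100 kb, beside 1 co-bound site at the gene's end. The strongest 3 were the Lao1 site already described, one 2852 bp upstream and one 6203 bp upstream. The site at 2852 bp (chromosome 4, 119105648 to 119106138) scored 385 and 342 (HIF1A) and 237 and 589 (ARNT) at 4% O2. At 20% O2 HIF1A replicate 2 alone had a peak there (43.9). Around Vegfa, the endothelial growth factor gene, 6 sites had mean ranks of 47.7 to 97.7, the highest 12673 bp downstream. A site at 12230 bp (83.3) had the same ARNT scores as the highest (141.8 and 149.6 at 4% O2), so these neighbours are not independent.

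Egln3, the oxygen-sensing prolyl hydroxylase gene, had 2 sites of nearly equal rank, 83573 bp upstream (99.1) and 15983 bp downstream (99.03). Both had a HIF1A peak in replicate 2 only at 20% O2, scoring 56.5 and 41.1. Tiparp, a mono-ADP-ribosyltransferase gene, had 2 downstream sites that differed at 20% O2. The site at 31266 bp (mean rank 99.1) had a HIF1A peak of 33.2 in replicate 2, and the site at 26205 bp (96.9) had none in either list. Bhlhe40, a clock-linked repressor gene, had its strongest site 1625 bp away (99.1), and Ndrg1 had 2, the St3gal1 site and one 15372 bp away (mean rank 89.95).

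Not every gene known for HIF-1 binding had a strong intergenic site of this kind. Adm, Ccnd1 and Cited2 had none within 100 kb. Adm had 2 co-bound hypoxic sites at its ends and Cited2 had 1, while Ccnd1 had neither. Hk2, a hexokinase gene, had 2 sites with mean ranks of only 64.9 and 69.8, 1 of them 62947 bp upstream. A further intergenic site, 47.4 kb upstream of Hk2 (-47.4 kb from its start), had a mean rank of 99.9 but also had ARNT in both lists at 20% O2 and so was not one of the 1553.

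**Figure D4:**
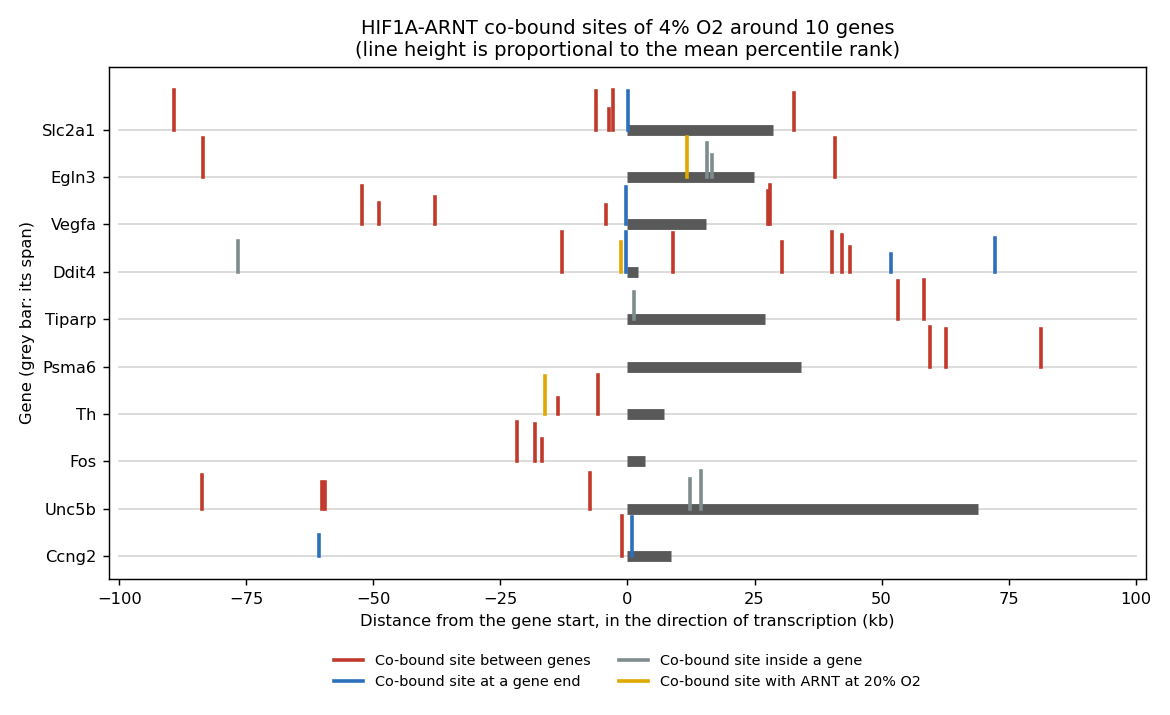
Co-bound sites of 4% O2 around 10 genes, by distance from the gene start in the direction of transcription (horizontal axis, kb); grey bars are gene spans, line height is proportional to mean percentile rank, and colour gives the class of the site. Ddit4 and Vegfa have 6 intergenic sites each, Slc2a1 has 5, and the Fos sites all lie upstream, at -21.74 to -16.742 kb from its start.

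Gene lists were written for this tissue and treatment with earlier results of these data known, so their shares are a description with no test. Of all protein-coding genes, 15.9% had an intergenic co-bound site within 100 kb and 5.40% were nearest to one. Neighbouring genes can share a site, and a list of genes of other tissues, kept for comparison, stood at 7 of 28 (25%). Counts near that level are no result about a list. The genes of growth control and stress had a site at 14 of 20 (70%), and 13 of the 20 were nearest to one. They included Ccng2, a cyclin gene, with a site 1149 bp upstream (mean rank 99.4), the antiproliferative gene Btg2 at 3005 bp (98.7), and the repressor gene Klf10 with 4 sites. Cdkn1b, a cell cycle inhibitor gene, had 2, the nearest at 2900 bp, and had no co-bound hypoxic site at its end or inside.

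The immediate early genes, known for rapid induction by a stimulus, had a site at 11 of 19 (57.9%). Fos had 3, the strongest (chromosome 12, 85451711 to 85452589) 21740 bp upstream and covering the Gm38543 window shown above. It scored 430.05 and 285 (HIF1A) and 199 and 375 (ARNT) at 4% O2, and at 20% O2 HIF1A replicate 2 scored 27.9, with no peak in the remaining lists. Fosl2 and Jund also had 3 each, and Fosl1, Jun, Junb, Egr3 and Nr4a1 had 2 each. The Atf3 site over the D730003I15Rik window lay 41133 bp upstream, with HIF1A scores of 90.8 and 28.7 at 4% O2 and of 13.1 and 21.6 at 20% O2. Of the 11 genes 6 had no co-bound hypoxic site at an end or inside. Among all protein-coding genes with an intergenic site within 100 kb, 2568 of 3487 had none.

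Glycolysis genes had a site at 11 of 26 (42.3%). The strongest lay by Slc2a1, by Gpi1 (the Garre1 site, 4089 bp from Gpi1) and by Pfkfb3. Sites near Pfkl, Pfkp, Tpi1 and Eno2 had mean ranks of only 40.8 to 52.2, Tpi1 and Eno2 sharing theirs. Pgk1, phosphoglycerate kinase, had 3 within 100 kb, the highest with a mean rank of 94.2. The nearest, 2500 bp upstream (82.5), had scores of 63.8 and 24.95 (HIF1A) and 21.3 and 35.1 (ARNT) at 4% O2 and no peak at 20% O2. For the mitophagy and mitochondria list the count was 5 of 12 (41.7%), led by Ddit4 and by Bnip3, a mitophagy receptor gene, with a site 10097 bp upstream (98.2). Oxygen sensing and HIF feedback stood at 3 of 16 (18.8%): Egln3, the related hydroxylase gene Egln1 with a site 42156 bp away (98.8) and Epas1, which encodes HIF2A, with one at 21541 bp (95.5).

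Circadian clock genes had a site at 8 of 20 (40%), and all 8 also had a co-bound hypoxic site at an end or inside. Of the whole list, 14 of 20 (70%) had one at an end or inside. Among all 3487 protein-coding genes with an intergenic site within 100 kb, 919 did. The clock repressor genes Bhlhe40 and Bhlhe41 led, the second at 2398 bp (94.7). Synapse and vesicle release genes had one at 8 of 20 (40%), led by Syt1, the calcium sensor of vesicle release. Its site 41379 bp upstream scored 308 and 177 (HIF1A) and 124 and 50.3 (ARNT) at 4% O2, with no peak in any list of 20% O2. Collagen and matrix genes had one at 6 of 15 (40%), 4 of them without a co-bound hypoxic site of their own. The same was true of 2568 of the 3487 protein-coding genes with an intergenic site within 100 kb.

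The remaining lists had shares of at most 28.6%. Lipid storage stood at 4 of 14 (28.6%), with a site 1466 bp upstream of the lipid droplet gene Hilpda (94.5), JmjC demethylases at 5 of 18 (27.8%), led by Kdm7a, and blood supply, pH and iron at 6 of 22 (27.3%), where Hmox1, a heme oxygenase gene, had a site at 9344 bp (98.4). Ribosomal proteins stood at 8 of 30 (26.7%). Sympathoadrenal genes stood at 4 of 18 (22.2%), while 6 of 18 (33.3%) were the gene nearest to a site at any distance. Among them Th, tyrosine hydroxylase, the rate-limiting enzyme of catecholamine synthesis, had a site 5827 bp upstream (chromosome 7, 142905550 to 142906095). There HIF1A scored 411 and 293 and ARNT 194 and 413 at 4% O2, and at 20% O2 only HIF1A replicate 2 had a peak (37.1). Oxidative phosphorylation stood at 3 of 27 (11.1%) and nitric oxide signalling at 0 of 15.

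**Figure D5:**
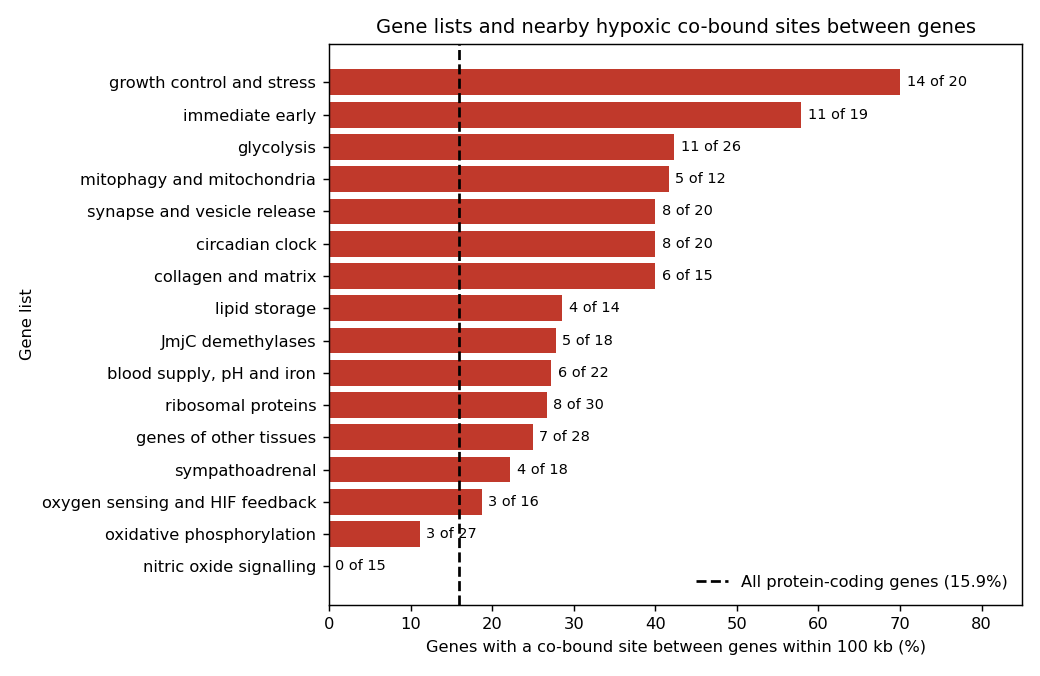
Percent of the genes of each list (rows) with an intergenic co-bound site within 100 kb (horizontal axis), with counts beside the bars and a dashed line at 15.9% for all protein-coding genes. Growth control and stress (14 of 20) and immediate early genes (11 of 19) have the highest shares, and nitric oxide signalling has 0 of 15. The lists were written with earlier results of these data known.

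Noncoding genes overlapped many of the sites. The centre lay inside a noncoding gene for 377 sites (24.3%, 22.2 to 26.5), 368 of them lncRNA genes, and within 1 kb of an end of one for 207 (13.3%, 11.7 to 15.1). Either held for 480 sites (30.9%). For intergenic HIF1A regions without ARNT the shares were 23.5%, 10.1% and 27.8%. Among the 10 highest sites of this kind were those near Rassf7 (Mir210), St3gal1 (59 bp from Gm31342), Garre1 (inside Gm12758), Smug1 (729 bp from D930007P13Rik), Klhdc10 (23 bp from 1700012C14Rik) and Scd2 (449 bp from Gm41853). Others were inside Gm40673 (near Dnajb12), Gm52706 (near Slc2a1) and Gm31805 (near Slc38a7). All of these named sites had a HIF1A peak in replicate 2 at 20% O2, and that near Klhdc10 also had one in replicate 1.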

How the data were processed

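HIF1A and ARNT were mapped by ChIP-seq in 8 samples, in 4 groups of 2 taken from the sample titles, with 4 input samples that have no list of their own. The tools BWA, Picard and MACS2 and the build mm10 come from the submitters' processing notes, which name no version or setting. The authors deposited a list per sample, with a position and a score for each peak and no read counts, so depth is unknown. Per the sample names in the files, HIF1A replicate 2 was called against input 5 and all other lists against input 4. Per the file headers the replicate 1 samples shared a lane, and the ARNT replicate 2 samples were read in other lanes, that of 4% O2 on another flow cell. Both HIF1A replicate 2 lists hold 1 bp positions, and per the labels their reads were combined from a pair of runs. The labels do not say that replicates came from separate cultures, so any test measures the spread between these samples only.

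Overlap needed 1 bp. Gene positions came from RefSeq (GRCm38.p6, the build of mm10), with 21887 protein-coding genes. A gene end here means an end of a protein-coding gene. Percentile ranks were computed within each list, and shares carry 95% Wilson intervals. Differences between locations were taken within each list, and those in HIF1A at 20% O2 were tested by exact sign-flip permutation over lists (Python 3.11.15, numpy 2.4.6, scipy 1.17.1). The scripts were tested on simulated lists. Named sites were the 15 highest, the 8 highest with HIF1A in both and in neither list of 20% O2, and the 5 farthest. The rule also took the 5 stretches with the most sites, the 10 highest at noncoding genes and up to 5 for each gene list. It further took those beside the 1 kb limit and all near 12 chosen genes. A site that this rule takes is not reported here. Further genes named within 100 kb, and the microRNAs and promoter windows printed, were picked after their values were seen. The sites, lists and rules were chosen with earlier results of these data known. The alternatives tried were other overlaps, stricter scores, other gene sets and distances, and leaving out each replicate. Leaving out a HIF1A replicate 1 list also widened the 1 bp summits of its replicate 2 by 75 bp on each side. The alternative asking for an overlap of 50% of the shorter peak used such widened summits in both HIF1A replicate 2 lists. A comparison within rank quartiles was added after seeing the data.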

Additional observations from a re-analysis of the deposited data

How the results depend on the processing

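Without reads, depth cannot be separated from enrichment, and a list with no peak at a site does not show that nothing was bound. The number of sites was 317 with lists shortened to their highest peaks (as many as the shortest list holds), 917 with peaks above each list's median score and 799 beyond 20 kb, and 1298 to 3302 when a replicate was left out, the highest without ARNT at 4% O2 replicate 2. The share with a HIF1A region at 20% O2, 11.6% as reported, was 4.10% with the shortened lists, 8.40% with peaks above the median, 14.3% beyond 20 kb, 5.34% with no ARNT peak at 20% O2 in either list, and 5.55% to 53.3% with a replicate left out, the lowest without ARNT at 20% O2 replicate 2 and the highest without HIF1A at 20% O2 replicate 1.

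The rank difference from gene ends reversed to -0.33 with the shortened lists, and to -4.26 without ARNT at 4% O2 replicate 2, in a range of -4.26 to 6.13 over the replicates left out. The difference in share from gene ends, 7.58 points, reversed to -6.94 without HIF1A at 20% O2 replicate 1. Over the replicates left out it ranged from -6.94 to 16.0. It shrank to 1.35 with the shortened lists, 2.61 with no ARNT peak at 20% O2 in either list and 5.76 with peaks above the median. With equal weight to each rank quartile it was 7.47. The share whose nearest gene was also co-bound was 9.46% with the shortened lists, 21.8% with peaks above the median, 19.2% with all annotated genes, 34.6% beyond 5 kb, 42.8% beyond 20 kb, 27.6% with no ARNT peak at 20% O2, and 27.7% to 46.0% with a replicate left out. Of the 15 highest sites 4 remained beyond 20 kb and 8 remained with no ARNT peak at 20% O2 in either list. The cause of these changes was not tested. No paired analysis was possible because the tested difference compares sites within 1 list, which leaves no groups of samples to pair by replicate number.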
